A study of Mus musculus with 14 samples.

Results

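The Ebf1 gene encodes EBF1, the transcription factor whose altered versions were compared here, and its own locus was followed through 9 lists of ChIP-seq peaks. Members were all peaks overlapping the Ebf1 gene body (GRCm38, chromosome 11, 44618100 to 45008096) extended by 100 kb on both sides, a window of 590 kb from 44518100 to 45108096. There were 144 such peaks among 196179 in all lists. Peaks of different lists that shared at least 1 bp were joined into 1 position, which gave 44 positions, 33 of them touching the gene body. Positions are given by their middle in kb from the first annotated Ebf1 start (44618100), with negative values before it. The gene runs in the direction of increasing coordinates.

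The fetal liver cells were EBF1 -/- C57BL/6 progenitors positive for c-kit, taken from embryos of day 16 to 18, transduced and cultured on OP9 stroma with IL7, SCF and Flt3 for 14 to 20 days. They carried pMys retroviral vectors with an IRES and GFP, either with no EBF1 (empty vector), with EBF1 wt, with dC (C-terminal domain deleted), with dPLD (residues 480 to 520 deleted) or with F-GATA3 (C-terminal domain exchanged for the TA1 domain of GATA3). By the labels, cells with wt or F-GATA3 were pro-B cells, a partial block before that stage held those with dC or dPLD, and a block held those with the empty vector. The A-MuLV cells were EBF1 fl/fl C57BL/6 pro-B cells transformed by Abelson virus, in which the same kind of vector carrying wt or dC stood in for endogenous EBF1. Brg1, the ATPase of BAF chromatin remodelling complexes, was profiled in all 7 kinds of cell, and EBF1 only in the A-MuLV cells. Every library except the empty-vector one therefore came from cells with added Ebf1 coding sequence. The labels do not say which part of the gene was inactivated in the EBF1 -/- cells or which lies between the loxP sites, and a stretch missing from the genome would give no peak. The labels' cell types could not be checked against marker expression, since the lists hold no expression values.

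Each group had 1 library, so no test was made between conditions and no spread between replicates exists. Exact Clopper-Pearson 95% intervals stand beside shares and cover counting error only. Fold enrichment is the authors' value for each peak and serves to describe and rank peaks within their own list. Depth is unknown, so where no peak was called the protein may still have been present. The A-MuLV Brg1 lists reach down to a −log10 q of 1.37 (wt) and 1.33 (dC), and the other lists start near 10.0.

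EBF1 is required for B-lineage specification and takes part in its own regulation. Ebf1 transcription is known to use a distal and a proximal promoter. The distal one responds to EBF1 itself, to E proteins and to IL-7 signalling, and the proximal one to Pax5, Ets1 and PU.1. Brg1 peaks mark chromatin where a remodelling complex was caught, which includes promoters and enhancers.

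RefSeq lists 2 Ebf1 starts, at 44618100 and at 44620228, 2128 bp further in. Whether they correspond to the distal and proximal promoters was not examined. The 250 bases before the first are shown because Brg1 peaks of all 4 EBF1 versions in fetal liver cells and of A-MuLV wt cells reached them, and no peak of either EBF1 list did. The sequence is on the plus strand of chr11:44617850-44618099 (RefSeq, GRCm38 patch 6), and capitals mark the one match among the motifs searched, a RUNX hexamer.

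Ebf1 first start, upstream: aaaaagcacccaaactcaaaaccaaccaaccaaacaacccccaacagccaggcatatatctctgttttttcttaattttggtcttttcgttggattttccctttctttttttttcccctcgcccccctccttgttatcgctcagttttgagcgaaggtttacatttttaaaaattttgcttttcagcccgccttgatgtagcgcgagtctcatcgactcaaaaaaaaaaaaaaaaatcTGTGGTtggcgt

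Letters were searched on both strands from 250 bases before to 50 after the start. For Ebf1 only the stretches at the 2 starts were searched, and not the one at -5.5 kb described below. CCCNNGGG, the core of EBF sites, had no match there or at the second start, and 13.7% of 32851 promoters of the same length held one. The RUNX hexamer TGTGGT, found once at the first start, occurred in 16.8% of promoters. CAGNTG, bound by E proteins, had no match at either start (51.4% of promoters), and GAGGAA, bound by ETS factors, had 1 match at the second start only (28.3%). The matches do not overlap one another, and a match or its absence describes these letters alone.

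Brg1 was called at 2 places in the Ebf1 window without EBF1 and at many with any EBF1 version. The empty-vector list had 2 peaks, wt 18, dC 19, dPLD 16 and F-GATA3 18. The count with wt was thus 9 times that with the empty vector, and the whole lists differ by a ratio of 1.66. With lists of equal length, wt had 11 peaks and the empty vector 2. Both empty-vector peaks lay inside the gene, at 44624538 to 44625353 (6.8 kb, fold 6.26) and at 44880539 to 44881756 (262.9 kb, fold 6.55). Both were also called with wt (whole empty-vector list 61.3%), at folds of 6.04 and 7.47, and both with dPLD. With dC and with F-GATA3 only the one at 262.9 kb was called.

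**Figure D1:**
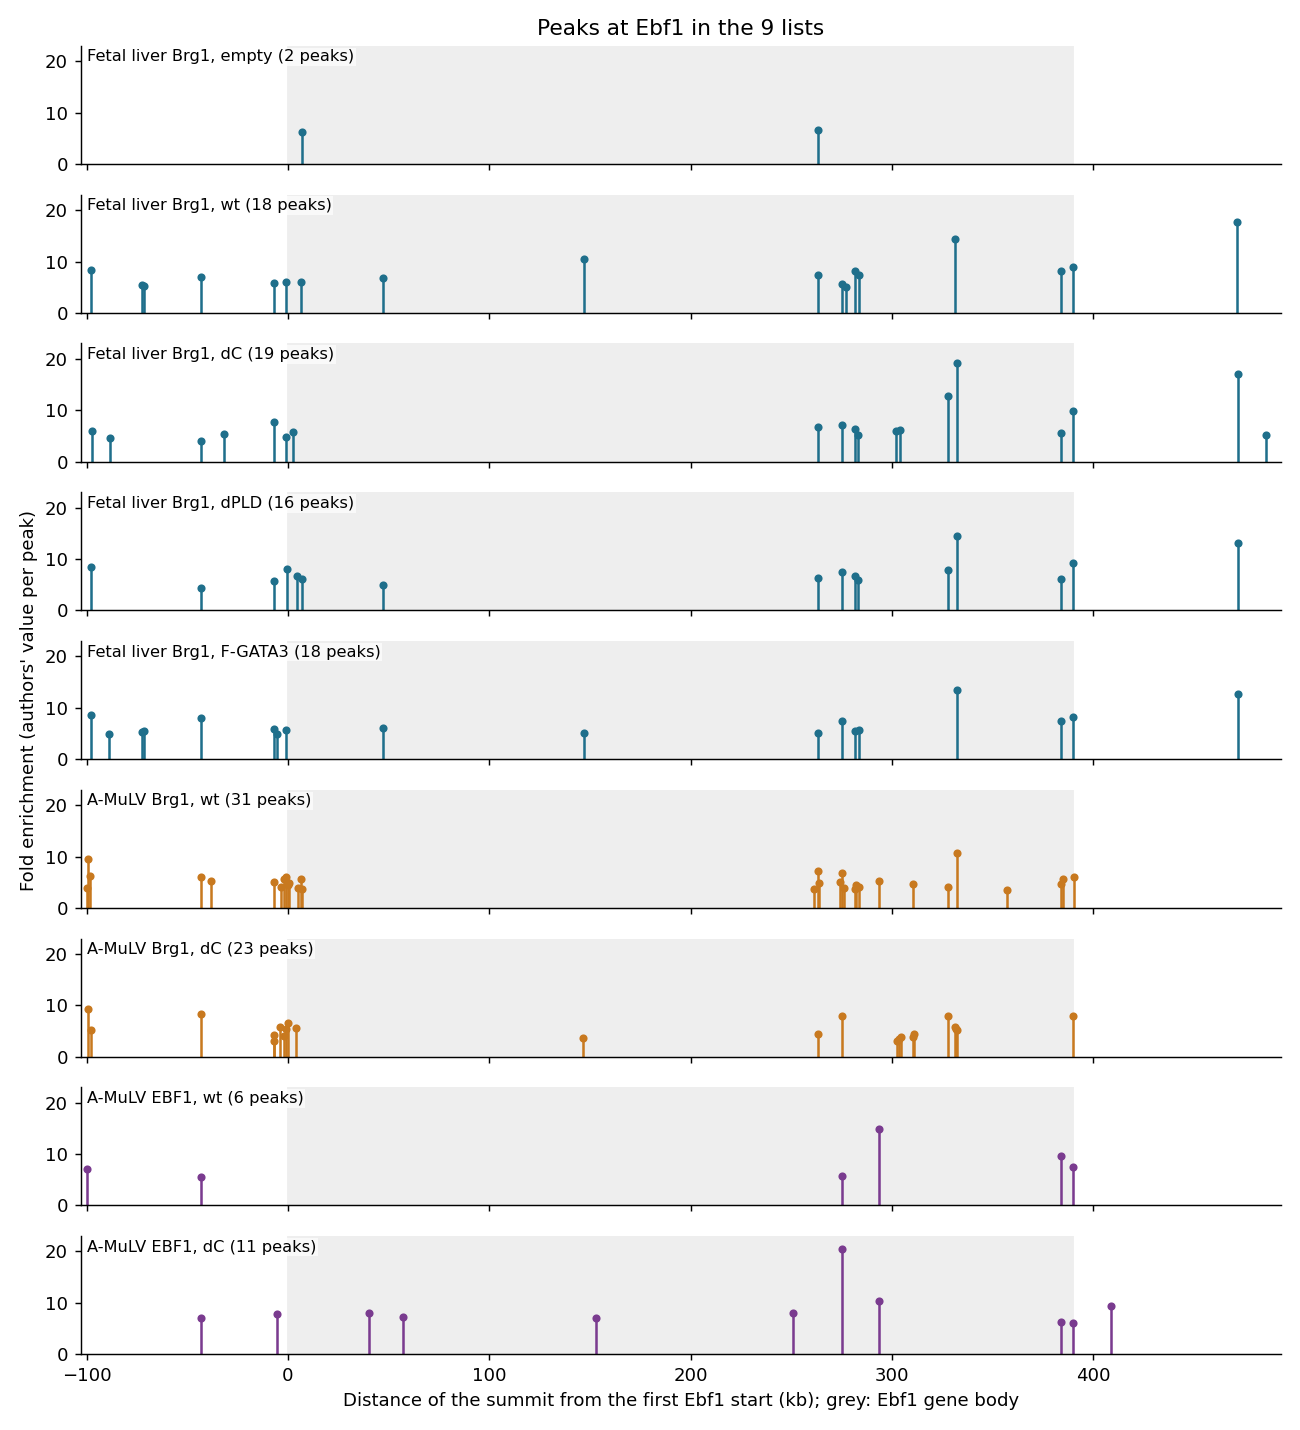
Peaks of the 9 lists by the distance of their summit from the first Ebf1 start (x axis, kb) and the authors' fold enrichment (y axis), 1 panel per list and 1 stem per peak, with the gene body in grey. The empty-vector panel holds 2 stems and each panel with an EBF1 version in fetal liver cells holds 16 to 19.

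Of the 18 wt peaks, 16 overlapped no empty-vector peak (88.9%, 65.3-98.6%), beside 63.9% of the whole wt list. The corresponding shares were 18 of 19 with dC (94.7%, 74.0-99.9%, whole list 62.1%), 14 of 16 with dPLD (87.5%, 61.7-98.4%, whole list 61.2%) and 17 of 18 with F-GATA3 (94.4%, 72.7-99.9%, whole list 60.5%). All 4 comparisons use the same empty-vector library. In each, the interval at Ebf1 lay above the share of the whole list, narrowly so for wt and dPLD. For wt the separation was lost in smaller windows, with 10 of 12 in the gene body alone (83.3%, 51.6-97.9%) and 12 of 14 with an extension of 50 kb (85.7%, 57.2-98.2%). With lists of equal length or a −log10 q of at least 20, 10 of 11 wt peaks lacked an empty-vector peak (90.9%, 58.7-99.8%). That interval also includes 63.9%, though the whole-list share was not recomputed there. These settings were not run for the other versions. The labels give the empty-vector cells an earlier stage than the others, so EBF1 and stage cannot be told apart.

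Around the first start, each EBF1 version gave broad Brg1 peaks where the empty vector had none. The start itself lay under peaks of 2788 bp with wt (44616004 to 44618791), 3036 bp with dC, 3012 bp with dPLD and 2686 bp with F-GATA3. These widths exceeded 92.0% to 94.3% of the peaks in their lists, while the folds were moderate (6.11, 4.85, 7.97 and 5.65). A separate broad stretch lay at -5.5 kb, with peaks of 3072 bp with wt (fold 5.82), 3476 bp with dC (7.65) and 2932 bp with dPLD (5.68). With F-GATA3 it was split into peaks of 1277 and 865 bp (5.91 and 4.91). Only dC had a Brg1 peak over the second start, at 44619123 to 44621005 (fold 5.71).

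In A-MuLV cells the same stretches were covered by short peaks. Around the first start there were 4 Brg1 peaks with wt (282 to 746 bp, highest fold 6.06) and 3 with dC (169 to 512 bp, highest fold 6.56). One wt peak covered the start itself (44617841 to 44618131, fold 4.53), and no dC peak did, the nearest lying at 44618226 to 44618436. At -5.5 kb there were 2 with wt and 3 with dC, with highest folds of 5.07 and 5.87. EBF1 itself was called here once, with dC at 44612348 to 44612652 (-5.60 kb by its summit, fold 7.86), between the A-MuLV Brg1 peaks and touching none of them. No EBF1 peak overlapped either start.

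**Figure D2:**
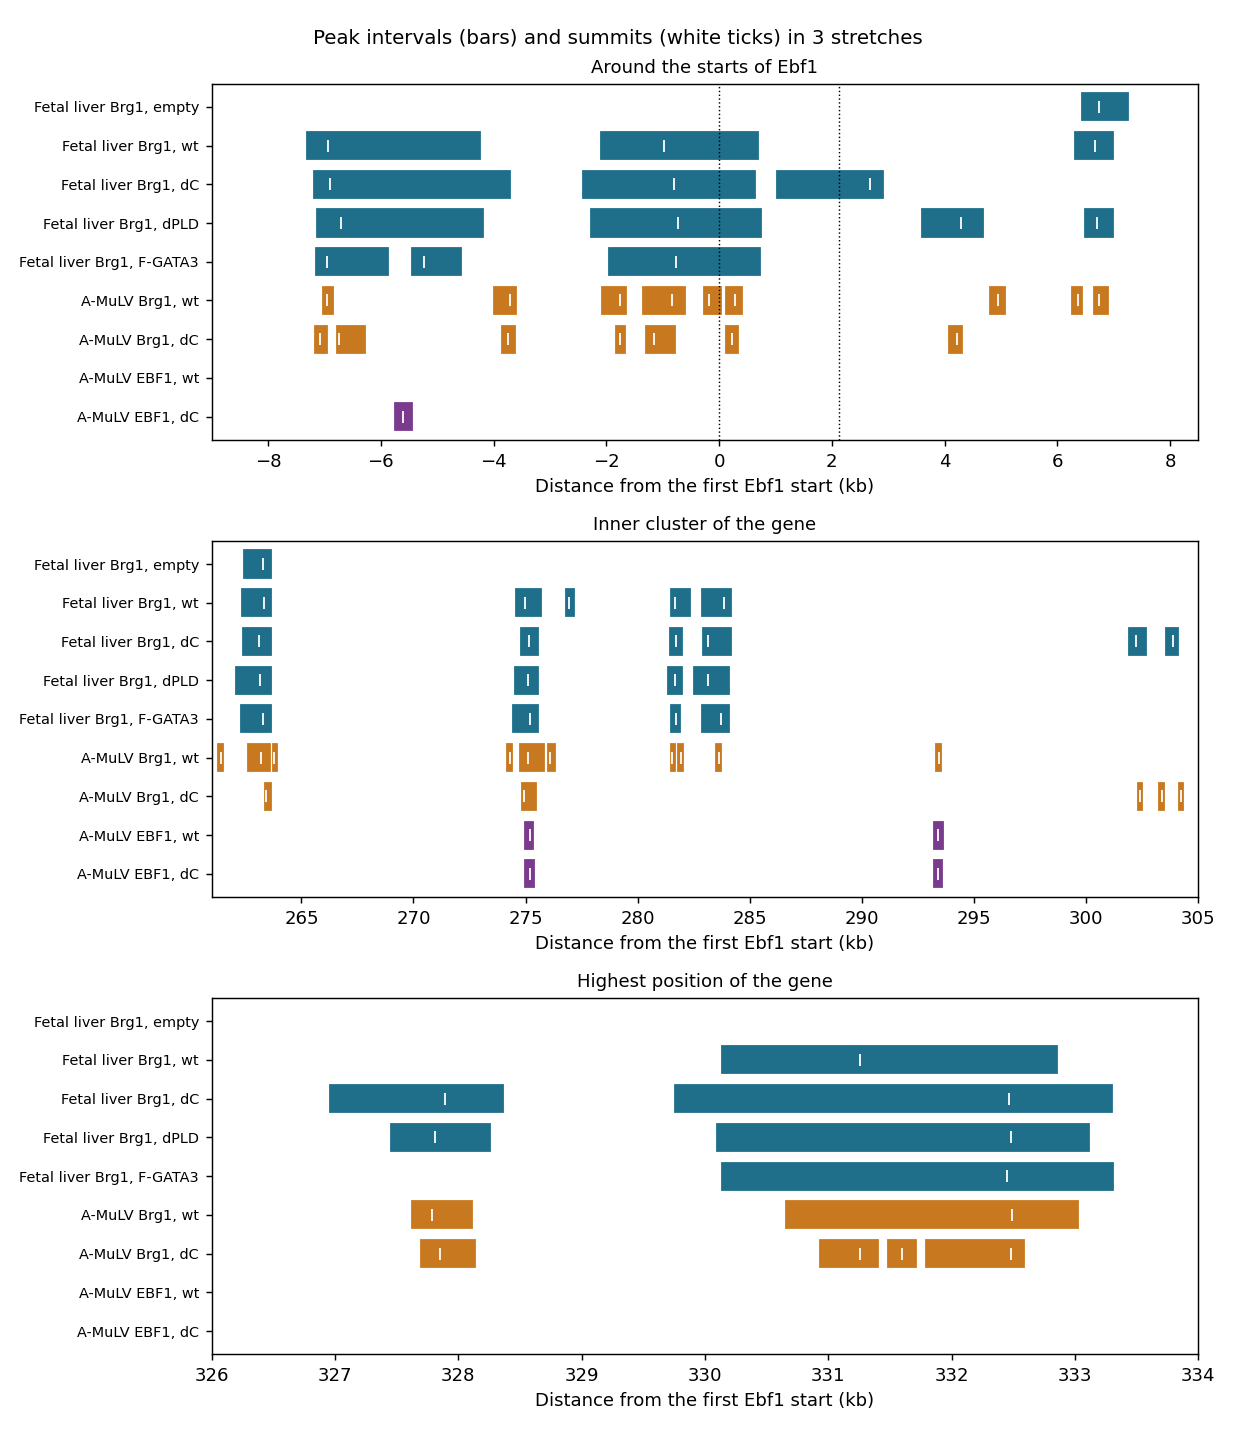
Peak intervals (bars) and summits (white ticks) in the 9 lists around the starts, in an inner stretch of the gene and around the 331.5 kb position, against the distance from the first Ebf1 start (kb), with dotted lines at the 2 starts. Fetal liver bars near the first start are 2686 to 3036 bp wide and the A-MuLV bars are short pieces of the same stretch.

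Inside the gene, the highest fetal liver Brg1 peak of each EBF1 version lay at 331.5 kb. Its fold was 14.3 with wt (44948236 to 44950952), 19.2 with dC, 14.4 with dPLD and 13.4 with F-GATA3, and no empty-vector peak was called. It was the highest window peak of the dC, dPLD and F-GATA3 lists, and ranked 489 of 30301 peaks with dC. In A-MuLV wt cells it was also the highest (10.6, 2372 bp wide), and in A-MuLV dC cells it consisted of 3 peaks of 468, 228 and 802 bp with folds of 5.70, 5.32 and 5.18. The wt summit in fetal liver lay at 331.26 kb, and those of dC, dPLD and F-GATA3 lay 1191 to 1224 bp further on. The A-MuLV wt summit lay 1234 bp further on than the fetal liver wt one, and the A-MuLV dC pieces held summits at both places. No EBF1 peak was called at this position with either form.

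Another 6 positions of the gene were called with all 4 EBF1 versions. Those at 275.1, 281.8 and 283.3 kb had wt folds of 5.62, 8.19 and 7.46 and no empty-vector peak. The 262.9 kb position, shared with the empty vector, had folds of 7.47 (wt), 6.80 (dC), 6.32 (dPLD) and 5.05 (F-GATA3). At 384.2 kb the folds were 8.15, 5.60, 6.15 and 7.37 in the same order. The 390.0 kb position spans the annotated end of the gene (45008096) and had folds of 8.91, 9.88, 9.27 and 8.22. These fetal liver peaks were of ordinary height, the highest exceeding 77.0% of its list (dC at 390.0 kb).

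Outside the gene, 3 positions besides that at -5.5 kb were called with all 4 versions and not with the empty vector. One at 471.7 kb, past the end of Ebf1 and inside the non-coding gene Gm51859, was the highest window peak with wt (17.7, 45089088 to 45090382) and reached 17.0 with dC, 13.1 with dPLD and 12.7 with F-GATA3. It had no peak in any A-MuLV list. The -43.0 kb position, which overlaps no annotated gene, had folds of 6.97 (wt), 3.99 (dC), 4.44 (dPLD) and 7.98 (F-GATA3). The -98.9 kb position covers the starts of Rnf145, an E3 ubiquitin ligase gene, and had folds of 8.42, 5.98, 8.42 and 8.68.

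**Figure D3:**
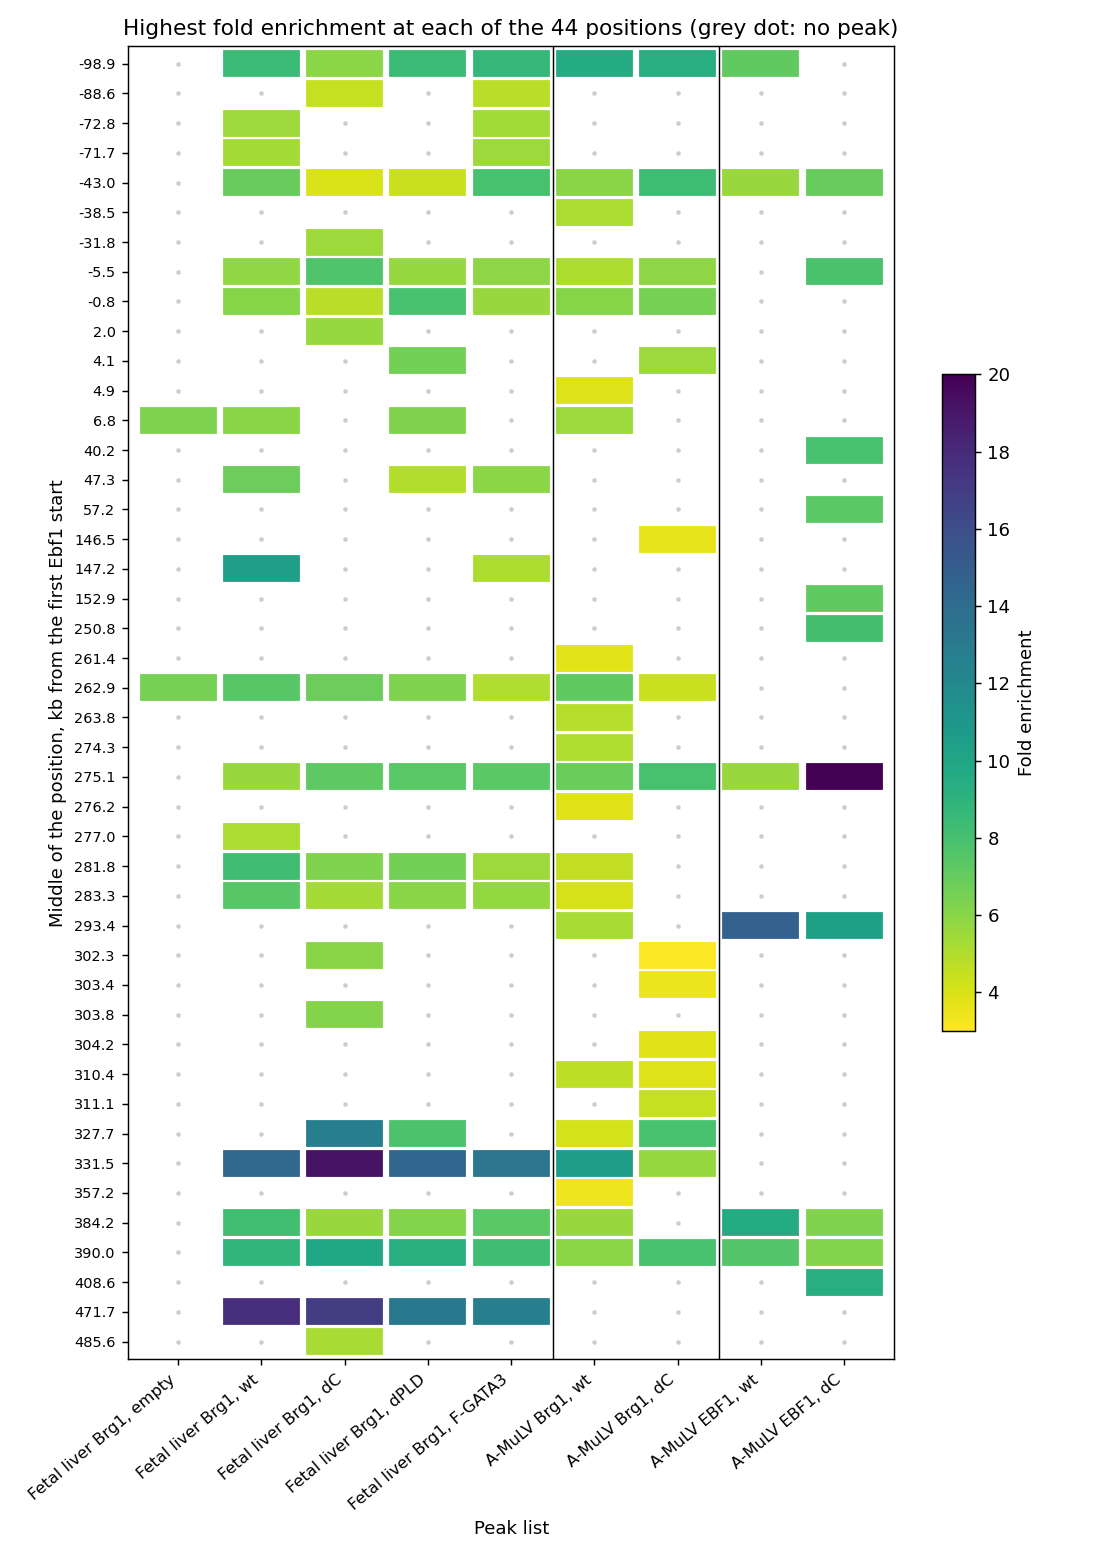
Highest fold enrichment (colour) at each of the 44 positions (rows, kb from the first Ebf1 start) in each of the 9 lists (columns), with a grey dot where no peak was called. The fetal liver columns with an EBF1 version share 12 rows, and the empty-vector column is filled in 2.

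For the wt peaks shared with the altered versions, the counts at Ebf1 did not separate from the whole list. Of the 16 wt peaks without an empty-vector peak, dC had 11 (68.8%, 41.3-89.0%), dPLD 12 (75.0%, 47.6-92.7%) and F-GATA3 15 (93.8%, 69.8-99.8%). Over the whole list the shares were 76.3%, 77.2% and 70.0%, each inside the interval at Ebf1. Peaks with all 3 altered versions numbered 11 of the 16 (68.8%, 41.3-89.0%, whole list 57.3%). Among all 18 wt peaks, dC had 12 (66.7%), dPLD 14 (77.8%) and F-GATA3 16 (88.9%), beside 83.6%, 83.6% and 77.0% over the whole list. When summits had to lie within 200 bp, the shares were 8 of 18 with dC (44.4%), 10 of 18 with dPLD (55.6%) and 13 of 18 with F-GATA3 (72.2%). Whole-list shares were not computed under that rule, so these counts cannot be set beside the whole-list values above. In the other direction, wt had 12 of the 19 dC peaks (63.2%, whole list 79.2%), 14 of the 16 dPLD peaks (87.5%, whole list 86.9%) and 17 of the 18 F-GATA3 peaks (94.4%, whole list 90.6%).

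**Figure D4:**
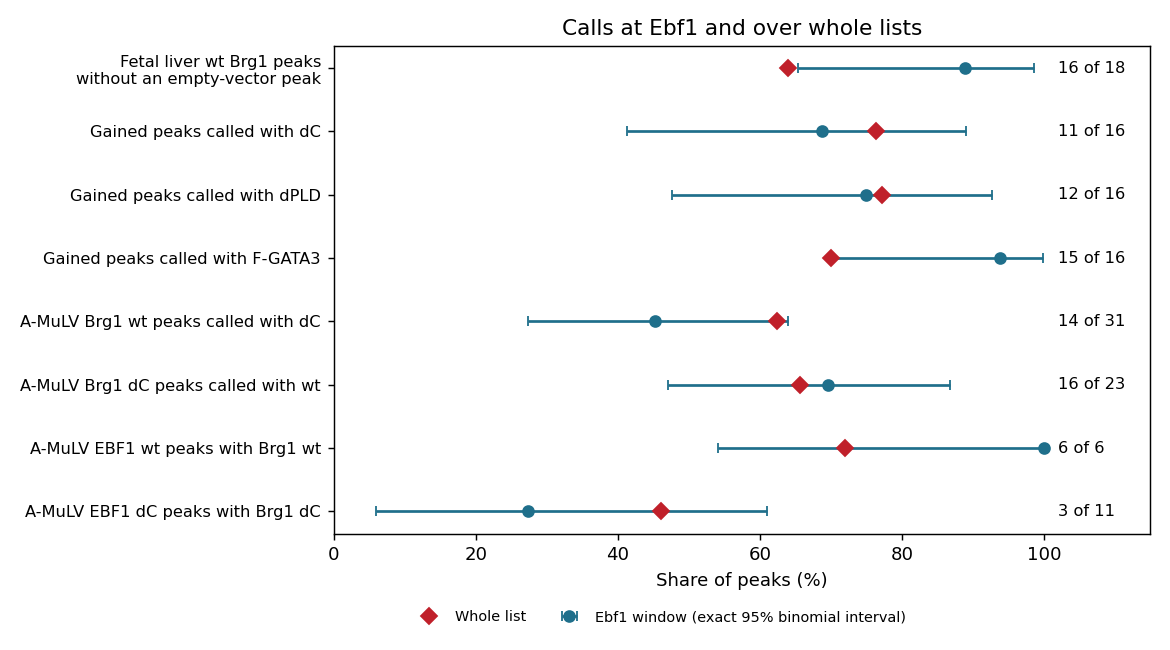
Shares of peaks at Ebf1 (blue points, with exact 95% binomial intervals) and in the whole lists (red diamonds), with the counts at the right; the x axis is in percent. The interval for the wt peaks without an empty-vector peak (65.3 to 98.6%) starts above the whole-list share of 63.9%, and that of A-MuLV wt Brg1 peaks called with dC (27.3 to 64.0%) reaches just past 62.4%.

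Some positions were called with some EBF1 versions in fetal liver and not with others. There were 3 with a peak for wt and F-GATA3 and none for dC, dPLD or the empty vector, at 147.2 kb (10.5 with wt and 5.12 with F-GATA3), -72.8 kb (5.46 and 5.34) and -71.7 kb (5.28 and 5.57). The −log10 q of these peaks ran from 10.3 to 11.7, in lists that start near 10.0, except for wt at 147.2 kb (35.3). The 3 positions made up 18.8% of the 16 wt peaks without an empty-vector peak (4.05-45.6%), beside 5.90% of the whole list. The 47.3 kb position was called with wt (6.83), dPLD (4.96) and F-GATA3 (5.98) and not with dC. At 327.7 kb the call was with dC (12.8, 44945058 to 44946463) and dPLD (7.80) and with no other fetal liver library. That pattern held for 5.26% of the dC window peaks (0.133-26.0%) and 4.77% of the dC list. By the labels, cells with wt or F-GATA3 were pro-B cells, and those with dC, dPLD or the empty vector were held before that stage. EBF1 version and stage therefore cannot be told apart at these positions.

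dC alone among the fetal liver libraries had a peak at 5 positions, -31.8, 2.0, 302.3, 303.8 and 485.6 kb, with folds of 5.22 to 6.18. These were 26.3% of its 19 window peaks (9.15-51.2%), beside 9.03% of its list. Their −log10 q ran from 10.1 to 14.9, in a list that starts near 10.0. The dC list is the longest of the fetal liver lists (30301 peaks). With lists of equal length it had 7 window peaks, and this share was not recomputed there. The stretch from 302.3 to 304.2 kb was singled out after its values were seen. It held 2 fetal liver dC peaks (6.01 and 6.18) and 3 A-MuLV Brg1 dC peaks (3.11, 3.53 and 3.80), and no peak of another list. All 3 of these A-MuLV peaks had a −log10 q of 2.65 or less.

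In A-MuLV cells Brg1 was called at Ebf1 more often with wt than with dC. The window held 31 wt and 23 dC peaks, a ratio of dC to wt of 0.742, while the whole lists have a ratio of 0.997. A dC peak overlapped 14 of the 31 (45.2%, 27.3-64.0%, whole list 62.4%), and a wt peak overlapped 16 of the 23 (69.6%, 47.1-86.8%, whole list 65.6%). The interval of the first share includes the share of its whole list, and in the gene body alone, with 6 of 21 (28.6%, 11.3-52.2%), it does not. Positions with both numbered 10, those with wt alone 12 and those with dC alone 6. At the wt-only positions the −log10 q ran from 2.07 to 7.12, and at the dC-only positions from 1.38 to 6.47. With a −log10 q of at least 10 both lists held 5 peaks.

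Positions called in A-MuLV cells with both forms included -98.9 kb (9.57 with wt and 9.32 with dC), -43.0 kb (6.01 and 8.31), 275.1 kb (6.86 and 7.94), 327.7 kb (4.13 and 7.94) and 390.0 kb (5.95 and 7.94). Those with wt alone included 281.8 kb (4.53), 283.3 kb (4.12) and 384.2 kb (5.60), where all 4 versions gave a fetal liver peak. Across the kinds of cell, 15 positions had Brg1 in both, 11 in fetal liver alone and 13 in A-MuLV cells alone. With wt, 20 of 31 A-MuLV peaks overlapped a fetal liver wt peak (64.5%, 45.4-80.8%), beside 81.8% of the whole list, and 12 of 18 in the other direction (66.7%, whole list 49.7%). With dC the shares were 17 of 23 (73.9%, whole list 87.6%) and 10 of 19 (52.6%, whole list 50.4%). Crosslinking (2% formaldehyde in fetal liver and 1% in A-MuLV Brg1 libraries, both with EGS) and the lowest q differ between the kinds of cell, and their part was not tested.

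EBF1 bound the Ebf1 locus in A-MuLV cells at 12 positions. The wt list had 6 peaks in the window and the dC list 11, a ratio of 1.83 beside 1.81 for the whole lists. Both forms were called at 5 positions, which is 83.3% of the wt peaks (whole list 76.7%) and 45.5% of the dC peaks (whole list 42.1%). At -43.0 kb the folds were 5.60 (wt) and 6.96 (dC). At 275.1 kb they were 5.64 (44893079 to 44893436) and 20.5 (44893078 to 44893490), the second being the highest EBF1 dC peak of the window. At 293.4 kb they were 14.8 (44911304 to 44911711), the highest with wt, and 10.3. At 384.2 kb they were 9.63 and 6.30, and at 390.0 kb 7.58 and 6.15. The summits of the forms lay 2 to 26 bp apart at these 5 positions.

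One EBF1 site was called with wt alone, at 44518021 to 44518339 before the Rnf145 starts (-98.9 kb, fold 7.17). Those called with dC alone numbered 6, at -5.5, 40.2, 57.2, 152.9, 250.8 and 408.6 kb, with folds of 7.86, 7.94, 7.32, 7.12, 8.08 and 9.31. All but the first of these overlapped no Brg1 peak of any library. The matching share over all EBF1 sites called with dC alone was not computed, so this count has no background beside it. With EBF1 lists of equal length the dC list had 5 window peaks in place of 11.

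In A-MuLV wt cells a Brg1 peak overlapped each wt EBF1 site of the locus, 6 of 6 (100%, 54.1-100%, whole list 72.0%). In dC cells it overlapped 3 of 11 EBF1 dC sites (27.3%, 6.02-61.0%, whole list 46.1%), those at -43.0, 275.1 and 390.0 kb. With a −log10 q of at least 10 the window shares were close, at 2 of 6 with wt (33.3%, 4.33-77.7%) and 3 of 11 with dC (27.3%). Whole-list shares were not computed at that limit, so these 2 shares have no background beside them. At the other 2 sites bound by both forms, 293.4 and 384.2 kb, Brg1 was called with wt (5.23 and 4.70 in the peak overlapping the EBF1 site) and not with dC. Where Brg1 wt and EBF1 wt overlapped, their summits lay 5 to 124 bp apart (median 38.0 bp). For the lists as deposited, the intervals of the wt and dC shares both include the share of the whole list.

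In fetal liver cells, each EBF1 version gave Brg1 peaks at the same 5 of the 6 wt EBF1 sites (with wt 83.3%, whole list 66.9%), and the empty vector gave none. The empty-vector list held only 2 peaks in the window. Whole-list shares at wt EBF1 sites were not computed for the empty vector, dC, dPLD or F-GATA3, so their counts have no background beside them. With dC, Brg1 lay at 5 of the 11 EBF1 dC sites (45.5%, whole list 53.1%). The wt EBF1 site without fetal liver Brg1 was that at 293.4 kb, the strongest wt EBF1 site of the locus, where no fetal liver library had a peak. Median distances between the EBF1 wt summit and the Brg1 summit ran from 34.0 bp (dPLD) to 75.0 bp (dC). The Rnf145 position stood apart, with distances of 2132 to 2448 bp within peaks of 2945 to 3355 bp. EBF1 was not profiled in fetal liver cells.

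Narrow peaks were looked for because added Ebf1 coding sequence could give short peaks over exons of the gene. A peak was called narrow when its width was under the 10th percentile of its own list (494 to 604 bp in the fetal liver, 181 to 191 bp in the A-MuLV Brg1 and 274 to 285 bp in the EBF1 lists). There were 18 narrow peaks among the 144 (12.5%, 7.58-19.0%), beside 9.95% over all lists (9.75% to 10.0% in single lists). The lists held 2 (wt), 4 (dC, 21.1% beside 9.94% of its list), 2 (dPLD), 2 (F-GATA3) and 0 (empty vector) in fetal liver, 4 (wt, whole list 9.89%) and 3 (dC) for A-MuLV Brg1, and 0 (wt) and 1 (dC) for EBF1. The 7 narrow A-MuLV Brg1 peaks all had the smallest width in their list, 178 bp with wt and 169 bp with dC, which 5.94% and 6.15% of those lists have.

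**Figure D5:**
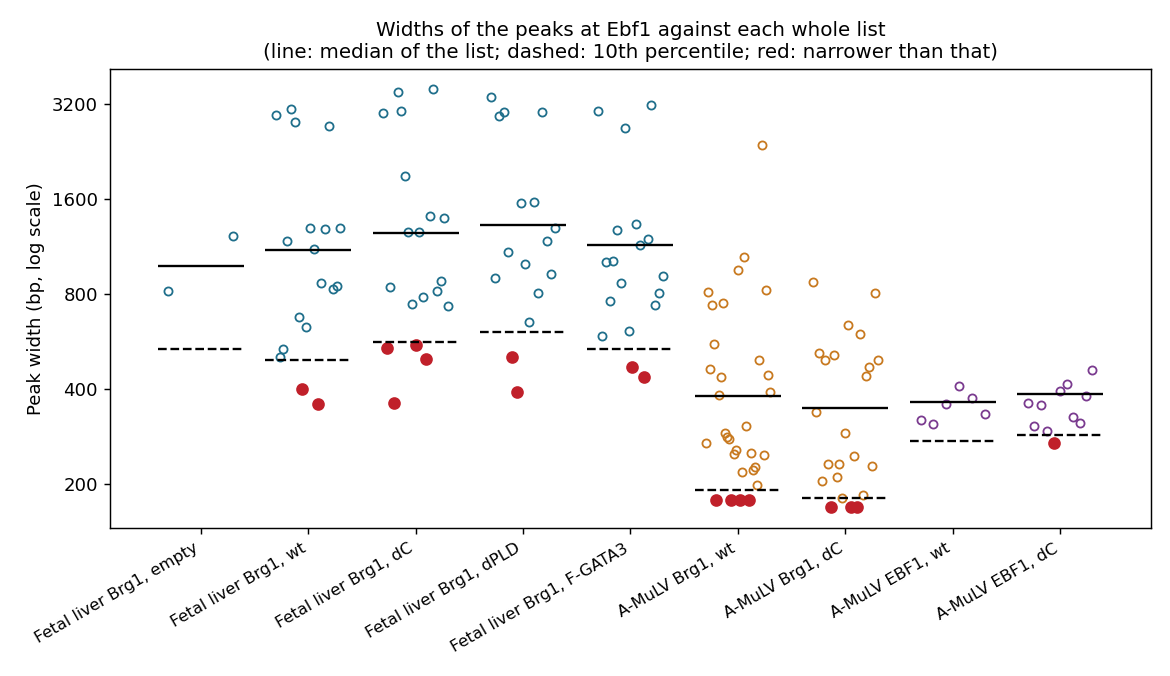
Width of each peak at Ebf1 (points, bp, log scale) in the 9 lists, with the median (line) and the 10th percentile (dashed) of each whole list, and the 18 narrower peaks in red. The red points lie under the dashed lines, and the widest fetal liver peak (dC at 331.5 kb) has 3546 bp.

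The narrow peaks fell on 14 positions, and 14 of the 18 peaks touched the gene body. The position narrow in most lists, 3, was 281.8 kb, with widths of 552 bp (dC), 437 bp (F-GATA3) and 178 bp (A-MuLV wt, which had a second peak of 251 bp there), beside 868 bp (wt) and 649 bp (dPLD). At 47.3 kb the widths were 399 bp (wt), 390 bp (dPLD) and 612 bp (F-GATA3), and no A-MuLV library had a peak there. The 6.8 kb position was narrow with dPLD (506 bp) and A-MuLV wt (178 bp), and the empty vector, which carries no Ebf1 sequence, had a peak of 816 bp there. At 147.2 kb F-GATA3 was narrow (469 bp) and wt was not (626 bp).

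Another 4 narrow peaks lay at positions called in no other list, at 277.0 kb (wt, 357 bp, fold 5.13), -31.8 kb (dC, 361 bp, 5.48), 303.8 kb (dC, 496 bp, 6.18) and 152.9 kb (EBF1 dC, 270 bp, 7.12). The position at -88.6 kb, in Rnf145, was narrow with dC (538 bp) and not with F-GATA3 (586 bp). The remaining narrow peaks were A-MuLV Brg1 peaks at -5.5 and 263.8 kb (wt) and -0.8, 302.3 and 304.2 kb (dC). Those at 263.8 and 304.2 kb also lay at positions called in no other list. No position was narrow in all 8 lists from cells with added EBF1, and the 6 that were narrow wherever called were called in 1 list each. Without regard to width, 3 positions were called in all 8 of these lists and not with the empty vector. They lay at -43.0 kb, outside the gene, at 275.1 kb, and at 390.0 kb, over the annotated end of the gene. Whether added sequence gave any peak there was not tested. Exon positions were not used here, so which narrow peaks lie over exons was not tested.

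Of the 44 positions, 29 were named by the rule used, and the other 15 were called in 1 to 4 lists with folds of 3.43 to 12.8, the highest being the dC peak at 327.7 kb. The edge of the window cut through a dense region. Just inside it on the left, wt had the Rnf145 peak (8.42), and just outside it lay a peak at 44495924 to 44497074 with a fold of 22.0. On the right, the last wt peak inside was that in Gm51859 (17.7), and the next one outside, at 45116355 to 45117260, had a fold of 5.62.

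Among the other EBF genes, Brg1 peaks were fewer than at Ebf1. Their windows were also shorter, and the counts were not adjusted for length. Within 100 kb of the gene, Ebf2 had 0 with the empty vector and 1 with each version, and no A-MuLV peak. Ebf3 had 0 with the empty vector, 2 with wt, 1 with dC, 2 with dPLD and 1 with F-GATA3, and 1 EBF1 peak with each form. Ebf4 had 2, 7, 4, 6 and 5 in that order, and EBF1 peaks numbered 1 with wt and 3 with dC. Ebf1 is the family member on which B-cell development depends.

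Genes of known regulators and partners of EBF1 were counted with a margin of 10 kb. A wt peak without an empty-vector peak lay near 12 of 12 (all protein-coding genes 48.9%), and one kept by all 3 altered versions near 11 (38.0%), the exception being Bcl11a. An EBF1 wt peak lay near 10 (19.9%) and an EBF1 dC peak near 10 (32.9%), with none for Il7r and Myb. In fetal liver all 12 had a peak with each EBF1 version (62.9% of genes with wt, 63.3% with dC, 61.7% with dPLD, 60.0% with F-GATA3), and the empty vector gave one for 11 (45.2%). In A-MuLV cells 12 had a Brg1 peak with wt (52.2%) and 11 with dC (52.1%). Counts in fetal liver had medians of 2.00 with the empty vector, 6.00 with wt, 5.00 with dC, 6.00 with dPLD and between 5 and 6 for F-GATA3. Gene length was not matched.

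Pax5, a partner of EBF1 in commitment, had 0 fetal liver peaks with the empty vector and 10 with wt, 6 of which all 3 versions kept. Ets1 had 3 and 9, Foxo1 1 and 5, Tcf3 (E2A) 2 and 7, and Spi1 (PU.1) 2 and 4. Il7r, the receptor chain for IL-7, had 2 in every fetal liver library, and 7 with wt against 0 with dC in A-MuLV cells. Of the 12 genes, 7 had more A-MuLV Brg1 peaks with wt (among them Foxo1 with 12 and 7, and Myb with 7 and 3), 4 had more with dC (Runx1 with 5 and 14, Ets1 with 10 and 19, Ikzf1 with 10 and 15, Spi1 with 3 and 4) and Stat5b had 11 with both. With a −log10 q of at least 10 this turned, with 2 genes higher with wt, 8 higher with dC and 2 equal. Of the zinc finger partners that bind EBF1, Zfp423 had 2 with the empty vector and 8 with wt, and Zfp521 had 0 and 5.

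Set beside the 2428 protein-coding genes of at least 100 kb, the Ebf1 body held many Brg1 peaks in all lists but the empty-vector one. Ranks run from the highest count, with equal counts sharing a rank. It had 2 with the empty vector (rank 537, with a median of 1.00 over these genes), 12 with wt (rank 41), 12 with dC (rank 46), 12 with dPLD (rank 30) and 10 with F-GATA3 (rank 52). In A-MuLV cells it ranked 5 with wt (21 peaks) and 30 with dC (15 peaks). For EBF1 it ranked 34 with wt (4 peaks) and 9 with dC (8 peaks). By the difference between wt and empty vector in fetal liver, 10 peaks, it ranked 20. Ebf1 spans 390 kb, and the ranks use raw counts that were not adjusted for gene length. They also use the lists as deposited. With a −log10 q of at least 10 the window held 5 A-MuLV wt Brg1 peaks in place of 31, and ranks were not recomputed.

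The genes whose peak counts varied most like those of Ebf1 over the 9 lists were Prkcb (r = 0.98), Immp2l (0.96), E130308A19Rik, Nipbl and Pax5 (each 0.95), out of 1111 genes compared. Prkcb, a protein kinase C gene, had 2 fetal liver peaks with the empty vector and 7 with wt, 12 and 9 in A-MuLV cells with wt and dC, and 3 and 5 EBF1 peaks. Pax5 had 0 and 10, 11 and 10, and 2 and 4 within its body. The 9 points differ in antibody, kind of cell and list length, which all genes share.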

How the data were processed

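Brg1 or EBF1 ChIP-seq peak lists of 9 libraries, 1 per group, were used, and the 5 inputs and all reads and signal tracks were not analysed here. Per the submitters' processing notes, the tools were MACS2 2.1.2, SAMtools 1.9, Bowtie2 2.3.3.1 and deepTools 3.3.1, on GRCm38. How duplicates were treated, which input served which library and what threshold peaks passed is not given in the sources used here. Each list, as deposited by the authors, gives peak positions and summits, the fold enrichment (a ratio to local background), the −log10 p and −log10 q values at the summit, and a score of 10 times the −log10 q without its decimals. Sequencing depth is not contained in these values.

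Peaks outside the assembled autosomes, X and Y were dropped. Peaks counted as shared when they overlapped by at least 1 bp. Gene positions and promoter sequences came from RefSeq tables for GRCm38 patch 6, which hold no exons. Intervals are exact Clopper-Pearson 95% intervals (scipy 1.17.1, Python 3.11.15). The joining of peaks and the sharing calls were tested on simulated data.

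Positions named were those called in at least 5 lists, at an EBF1 peak, over an Ebf1 start, with a narrow peak, or with the highest fold of a list; the 327.7, -72.8 and -71.7 kb positions, the stretch from 302.3 to 304.2 kb and the position at 485.6 kb were named after their values were seen. Likeness to Ebf1 used log2(count + 1) of peaks in the bodies of genes of at least 100 kb with at least 10 peaks, less the mean of each list, and Pearson's r over the 9 lists, with the 5 highest genes named. The members, gene lists and rules were chosen with earlier results of these data known. Values were recomputed with a −log10 q minimum of 10 or 20, lists of equal length, other overlap rules, smaller windows and other width limits.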

Additional observations from a re-analysis of the deposited data

Results flagged for a closer look

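The difference in Brg1 peak count at Ebf1 between dC and wt had opposite signs in the 2 kinds of cell. In fetal liver cells dC had 1 more peak than wt (19 and 18), and in A-MuLV cells the count fell by 8 (31 with wt, 23 with dC). With 1 library per group this difference was not tested. The fetal liver sign rested on 1 peak and did not hold: dC had fewer peaks than wt with lists of equal length (7 and 11) and with a −log10 q of at least 20 (8 and 11), and as many in the gene body alone (12 and 12). In A-MuLV cells both lists had 5 peaks with a −log10 q of at least 10.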

How the results depend on the processing

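No paired analysis was possible because each group had 1 library and no result came from a test. Of 104 values recomputed under 9 settings, 78 stayed within 1.5 times (counts) or within the 95% interval (shares), and 26 moved. The cause was not tested except where fewer peaks were left by construction. With a −log10 q of at least 10, A-MuLV Brg1 had 5 peaks with wt and 5 with dC, and Brg1 lay at 33.3% of the EBF1 wt sites. In that setting, chosen after seeing the data for the regulator genes, 2 in place of 7 had more A-MuLV Brg1 peaks with wt than with dC. With a −log10 q of at least 20, fetal liver Brg1 peaks numbered 11 with wt, 8 each with dC, dPLD and F-GATA3, and 1 with the empty vector, A-MuLV Brg1 peaks 2 (wt) and 0 (dC, so that its share called with wt has no value), and EBF1 peaks 2 (wt) and 4 (dC). The share of A-MuLV wt Brg1 peaks called with dC was then 0%, as were the shares of EBF1 sites with Brg1 (0% for wt, 0% for dC). With lists of equal length the fetal liver counts were 11 (wt), 7 (dC), 9 (dPLD) and 11 (F-GATA3), and EBF1 dC had 5. In the gene body alone, dC had 12 fetal liver and 15 A-MuLV Brg1 peaks and F-GATA3 had 10. Narrow peaks numbered 5 below the 5th and 43 below the 25th percentile of width. The share of fetal liver wt peaks without an empty-vector peak ran from 83.3% to 90.9% over all settings. Its interval included the whole-list share of 63.9%, as deposited, in the gene body alone and with an extension of 50 kb. It also did so with lists of equal length and with a −log10 q of at least 20 (58.7-99.8% in each). Whole-list shares were not recomputed under the alternative settings.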

Other observations

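A further group of Brg1 peaks lay within 40 kb outside the left edge of the Ebf1 window, before the start of Rnf145, and was looked at after its values were seen. It held 4 peaks with each of wt, dC, dPLD and F-GATA3 in fetal liver cells and none with the empty vector. The highest, at 44495924 to 44497074 with wt, had a fold of 22.0, above the highest wt peak inside the window (17.7). The folds there were 13.7 with dC, below its highest window peak (19.2), 15.9 with dPLD and 16.4 with F-GATA3. In A-MuLV cells it was called with wt (7.43) and dC (6.18), and EBF1 was called there with folds of 12.8 (wt) and 8.28 (dC). At the neighbouring peak (44493154 to 44494717, fold 18.7 with wt) EBF1 was called with both forms (11.2 with wt and 8.29 with dC), and A-MuLV Brg1 with wt (6.52) and not with dC.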
